A study of Homo sapiens with 12 samples.

Results

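The response of H1792 cells to RG7112 was measured by RNA-seq in 6 of the 12 samples of the series, 3 cultured with DMSO and 3 with RG7112, and it is described here across all expressed genes by function and by GC content. H1792 is an established human lung adenocarcinoma line, and the study used it as an MDM2-amplified line with mutant p53. RG7112 is a small molecule that occupies the p53 pocket of MDM2. Per the labels the cells were kept for 48 h in RPMI-1640 with serum and either DMSO (dose 0) or RG7112 at 1 µM, whereas the column names of the deposited table give 0.1 µM. The other 6 samples are A549, an MDM2-amplified line with wild type p53, under the same treatments, and they enter below only as a reference. Poly-adenylated RNA was sequenced, and the deposited values are estimated counts per gene. The labels number the replicates from 1 to 3 and do not say whether they came from separate cultures, so the p-values below measure the spread between these samples, which may be technical.

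MDM2 is a ubiquitin ligase that binds p53 and marks it for degradation. In cells with functional p53, an inhibitor of this contact lets p53 accumulate and raise its target genes, among them CDKN1A and MDM2 itself. A mutant p53 that no longer binds its target genes cannot drive this loop. GC content, the share of G and C bases in a transcript, differs widely between genes, and library preparation can favour transcripts of low or high GC content by an amount that differs from library to library.

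Total counts ranged from 2610822 to 5180412 in the DMSO samples and from 3680471 to 5055464 in the RG7112 samples. Of 20595 genes in the table, 9914 passed the expression filter in H1792, and 9165 of these had a GC content in GENCODE v29. Expression is given below as CPM, the count of a gene relative to the library total after TMM scaling. For the label, KRT8, KRT18, KRT7 and KRT19 were expressed in every H1792 sample, between 34.2 and 916 CPM of all counts, while the lung lineage genes NKX2-1 and SFTPC had no count and CDH1 and NAPSA reached at most 1.09 and 0.788 CPM. The 15 epithelial markers summed to between 1648 and 1838 CPM with DMSO and to between 1215 and 1415 CPM with RG7112. Of 16 markers of leukocytes, endothelium and fibroblasts, 5 had no count, among them PTPRC, CD3E, LYZ and VWF, and the collagens COL1A1 and COL1A2 made up most of a sum of 1183 to 1446 CPM that overlapped between treatments.

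The range of base composition that the correction concerns can be read from the transcripts. The stretches below are the first 75 bases of the longest coding exon of 8 genes in GENCODE v29 (GRCh38), read 5′ to 3′ on the strand of the gene, with every G and C in capitals. The first 4 belong to genes of low or middle GC content that were higher with RG7112, and the last 4 to genes of high GC content that were lower.
ITGB1, exon 6, chr10:32926035-32926109, minus strand, 34 of 75 bases G or C: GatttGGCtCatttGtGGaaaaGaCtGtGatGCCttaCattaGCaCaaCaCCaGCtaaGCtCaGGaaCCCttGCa
ENC1, exon 3, chr5:74636411-74636485, minus strand, 38 of 75: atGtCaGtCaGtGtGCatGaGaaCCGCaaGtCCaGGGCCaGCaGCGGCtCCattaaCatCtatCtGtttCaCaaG
LARP4, exon 16, chr12:50475526-50475600, plus strand, 37 of 75: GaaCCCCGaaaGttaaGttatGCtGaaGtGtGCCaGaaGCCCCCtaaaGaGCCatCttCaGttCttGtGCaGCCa
PRKAA1, exon 7, chr5:40765164-40765238, minus strand, 28 of 75: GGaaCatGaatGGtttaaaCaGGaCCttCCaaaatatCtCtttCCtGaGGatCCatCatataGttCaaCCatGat
PTPA, exon 5, chr9:129128985-129129059, plus strand, 41 of 75: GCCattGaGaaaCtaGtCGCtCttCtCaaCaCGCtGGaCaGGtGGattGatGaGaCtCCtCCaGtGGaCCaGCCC
HYOU1, exon 23, chr11:119046728-119046802, minus strand, 43 of 75: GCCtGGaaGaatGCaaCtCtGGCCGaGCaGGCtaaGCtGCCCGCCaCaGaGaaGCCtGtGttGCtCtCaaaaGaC
TPRN, exon 1, chr9:137200637-137200711, minus strand, 59 of 75: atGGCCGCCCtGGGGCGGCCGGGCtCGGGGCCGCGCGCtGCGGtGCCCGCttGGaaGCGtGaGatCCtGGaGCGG
ATP5F1D, exon 2, chr19:1242456-1242530, plus strand, 51 of 75: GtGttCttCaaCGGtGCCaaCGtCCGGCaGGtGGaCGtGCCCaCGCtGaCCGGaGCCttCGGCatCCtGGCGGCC
Over the whole transcript GC content was 40.0% in ITGB1, 49.4% in ENC1, 35.8% in LARP4 and 35.3% in PRKAA1, and it was 59.7% in PTPA, 55.2% in HYOU1, 70.1% in TPRN and 69.6% in ATP5F1D. The value of the whole transcript, not of the stretch, entered the correction.

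The question of how far the samples differed along GC content was asked of each library by itself. The slope of log2 CPM, taken as the deviation from the mean of the 6 samples, was 0.18, 0.27 and 0.26 per 10 percentage points of GC in the 3 DMSO samples and -0.15, -0.27 and -0.30 in the 3 RG7112 samples, over 9165 genes. The groups did not overlap, and the difference of -0.47 exceeded the spread of the slopes within a treatment (SD 0.05 with DMSO and 0.08 with RG7112, n = 3). The two-sided exact permutation test gave p = 0.1, the smallest that 3 against 3 samples allow. The GC content weighted by counts fell by 1.16 percentage points, from a mean of 53.1% to 51.9%, again without overlap (exact permutation p = 0.1). In A549 the slopes were -0.19, -0.09 and -0.04 with DMSO and -0.04, -0.01 and 0.37 with RG7112, so that RG7112 replicate 3 stood apart from the other 5, and the difference between treatments was 0.21 (exact permutation p = 0.1), or 0.08 without that sample. DMSO replicate 3 and RG7112 replicate 1 nearly coincided, at -0.0394 and -0.0391. Over genes with at least 10 counts in every sample the difference was 0.17 in A549 (exact permutation p = 0.3) and -0.40 in H1792 (p = 0.1). No label of the series gives an extraction, library or sequencing batch, so within H1792 the treatment and a difference in handling between its DMSO and RG7112 libraries cannot be told apart from these slopes.

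**Figure D1:**
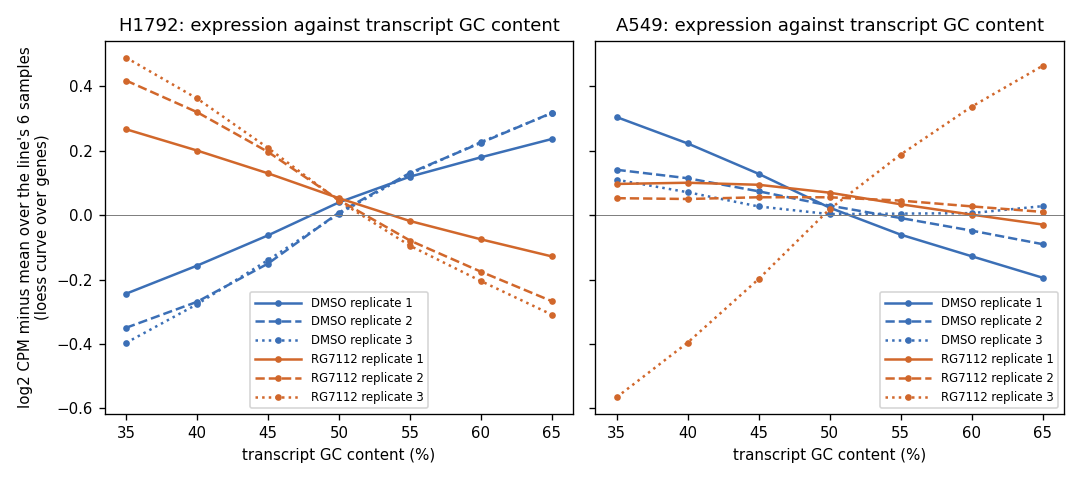
Loess curves of log2 CPM, as the deviation from the mean of the 6 samples of a line, against transcript GC content (%) in H1792 (left) and A549 (right), with 1 line per sample, DMSO in blue and RG7112 in orange. The H1792 curves fan out into 2 bundles by treatment that cross near 50% GC. In A549 the curve of RG7112 replicate 3 rises with a slope of 0.37, and of the others that of DMSO replicate 1 falls most, with a slope of -0.19.

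DEGs were genes with an adjusted p below 0.05 and an absolute log2 fold change above 1. Before any correction there were 1450 DEGs among 9914 genes, 1020 upregulated with RG7112 (10.3% of the genes tested) and 430 downregulated (4.34%). With the threshold on the adjusted p alone, 17.7% of the genes were called higher and 16.5% lower. CPM did not overlap between treatments, with RG7112 higher, for 27.4% of the genes, and with RG7112 lower for 25.5%. The upregulated DEGs had a median GC content of 42.2% and the downregulated DEGs one of 58.4%, against 48.9% over all genes tested. Across genes, Spearman's correlation of the log2 fold change with GC content was -0.50, given as a description, since genes are not independent replicates.

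The GC correction subtracted the loess curve of each sample and therefore removed every part of the difference that follows GC content, whatever its origin. After it, 946 DEGs remained among 9165 genes, 606 upregulated (6.61%) and 340 downregulated (3.71%), and the adjusted p alone called 12.3% higher and 13% lower. Of the 988 upregulated DEGs with a known GC content 540 (54.7%) were kept, and of the 400 downregulated DEGs 228 (57%) were kept. The correction took the call from 448 upregulated and 172 downregulated DEGs, although 139 and 68 of these still passed the adjusted p, and it added 66 and 112 new ones. No gene changed from one direction to the other. Without RG7112 replicate 2 the count after the correction was 511, without RG7112 replicate 3 it was 550, and without DMSO replicate 2 it was 622, while before the correction it was 920 and 953 without RG7112 replicates 2 and 3. With library size in place of TMM scaling 86.1% of the DEGs before the correction were upregulated, against 70.3% with TMM, since the median of all genes then lay at 0.27 on the log2 scale. After the correction the upregulated share was 64.1% with TMM and 64.9% with library size. This near equality follows from the method, since the curve of each sample also takes up its overall scale. It is therefore no check of the balance between the directions. Spearman's correlation with GC content went to -0.03, and the median GC content of the DEGs to 45.8% upregulated and 47.9% downregulated. The variance of the log2 fold changes across genes after the correction was 85.5% of that before it, so most of the spread of fold changes across genes did not lie along GC content.

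Deciles of genes by GC content, 10 groups of equal size, show where the calls moved. In the lowest decile (30.2% to 38.94% GC) 24.8% of the genes were upregulated DEGs and 0.655% downregulated before the correction, against 8.41% and 4.59% after it. In the highest decile (62.01% to 74.1% GC) the shares were 1.09% upregulated and 12.4% downregulated before, and 3.27% and 3.16% after. The median log2 fold change went from 0.67 to 0.03 in the lowest decile and from -0.52 to -0.01 in the highest. After the correction the share of upregulated DEGs still ran from 9.28% in the third decile to 3.27% in the highest, while downregulated DEGs made up between 2.07% and 4.59% of every decile.

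**Figure D2:**
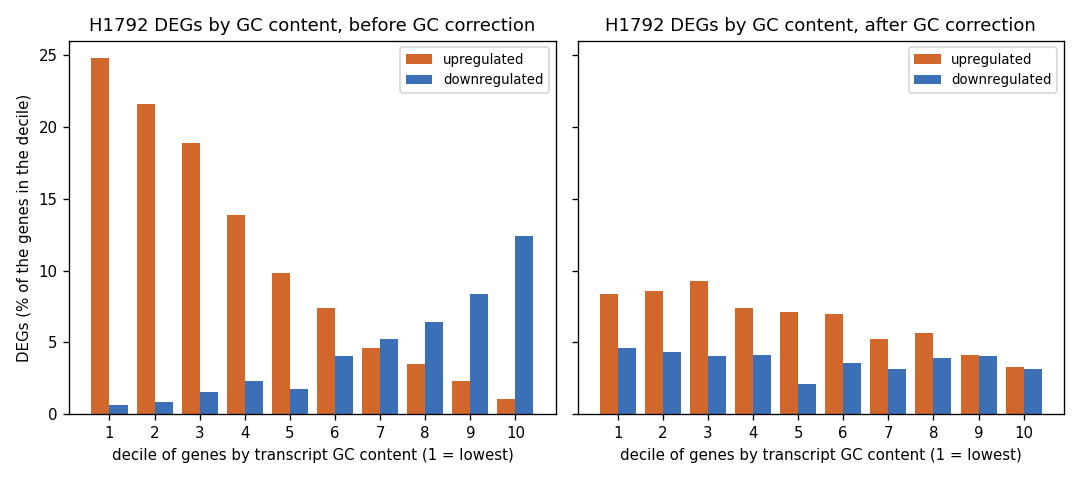
Share of genes that were upregulated (orange) or downregulated (blue) DEGs in H1792, in percent of each decile of the 9165 genes ordered by transcript GC content, before (left) and after (right) the GC correction. Before it the upregulated share falls from 24.8% in the lowest decile to 1.09% in the highest and the downregulated share climbs to 12.4%, and after it both are far flatter.

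The change that remained was set beside differences between A549 samples of one treatment. For each A549 treatment, the GC-corrected log2 CPM of 1 replicate was set against the mean of the other 2, and this difference between replicates was compared with the GC-corrected response of H1792 over 8542 genes. When replicate 3 of the A549 DMSO samples was set apart, Spearman's correlation across genes was 0.55 before and 0.56 after the correction, and for A549 RG7112 replicate 3 it was 0.58 and 0.44. Setting apart replicate 1 or 2 gave values between -0.40 and -0.26 after the correction. The differences of a gene cancel over the replicates of a treatment by construction. Negative values here therefore follow in part from the positive ones for replicate 3 and are no separate result. Of the 548 upregulated DEGs that were also tested in A549, 219 (40.0%) were more than 2-fold higher in A549 DMSO replicates 1 and 2 than in replicate 3, and 4 were more than 2-fold lower. Of the 320 downregulated DEGs, 117 (36.6%) were more than 2-fold lower and 6 more than 2-fold higher. Over all genes the shares in these DMSO samples were 7.73% higher and 5.62% lower. In the A549 RG7112 samples 162 of the 548 upregulated DEGs were more than 2-fold higher in replicates 1 and 2 and 12 more than 2-fold lower, while 92 of the 320 downregulated DEGs were more than 2-fold lower and 8 more than 2-fold higher. Over all genes the shares there were 7.12% higher and 6.31% lower. Genes this far apart between A549 replicates in either treatment numbered 1851, of which 24.7% were DEGs of H1792 after the correction. Of the other 6691 genes, 410 (6.13%) were DEGs, 255 upregulated and 155 downregulated. Of the H1792 DEGs tested in both lines, 52.8% were more than 2-fold apart between A549 replicates, in either direction and either treatment. Of all genes tested in both lines, 21.7% were. The choice of replicate 3 was made after the values were seen, and the part of this pattern in the response to RG7112 was not tested.

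**Figure D3:**
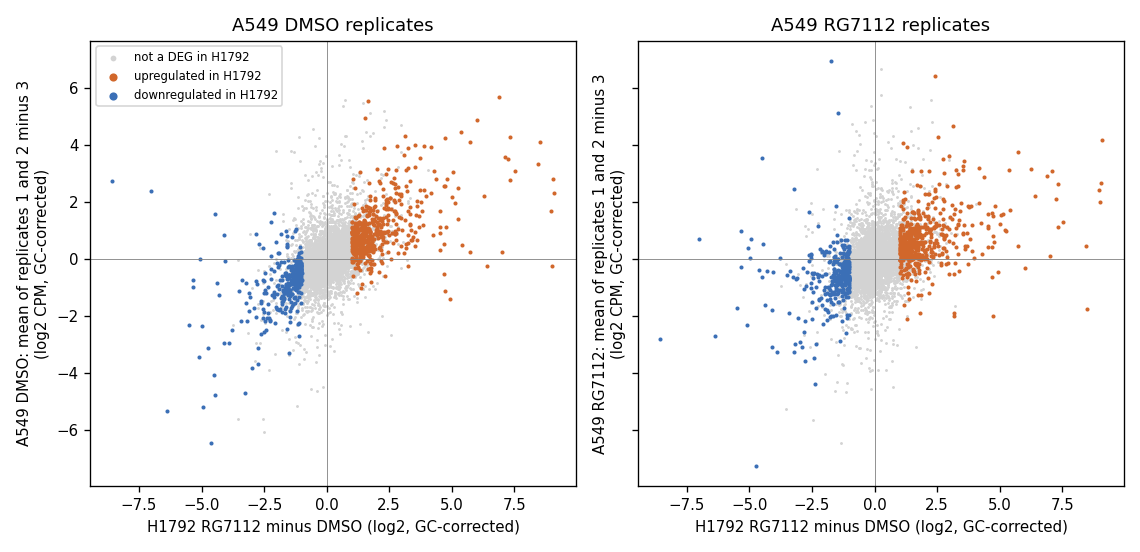
GC-corrected log2 difference between RG7112 and DMSO in H1792 (x axis) against the GC-corrected log2 difference between the mean of replicates 1 and 2 and replicate 3 of A549 (y axis), within DMSO (left) and within RG7112 (right), with 1 point per gene for 8542 genes. Upregulated DEGs of H1792 (orange) lie mostly above 0 on the y axis and downregulated DEGs (blue) mostly below 0, although the y axis compares A549 samples of the same treatment.

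Single genes also varied within a treatment of H1792. Of 5281 genes with a mean of at least 20 CPM, 206 (3.90%) ranged over more than 4-fold between the 3 replicates of a treatment, and among the 466 DEGs at that level 35 (7.51%) did. EEF1A1, the translation elongation factor that growing cells express at high levels, was low throughout, with between 25 and 98 counts per H1792 library. Its values were 7.93, 8.88 and 11.1 CPM of all counts with DMSO and 21.2, 19.4 and 13.7 CPM with RG7112. HSP90AB1, a constitutive cytosolic chaperone, had 2.72, 77.9 and 29.96 CPM of all counts in the RG7112 samples and 54.2, 44.4 and 111 CPM in the DMSO samples, with an adjusted p of 0.331. These 2 genes were picked after their values were seen. The counts were assigned to transcripts by kallisto and summed per gene by the authors, and how reads that fit several transcripts or genes were shared out can therefore enter a gene's value.

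The targeted pathway came first among the named genes. MDM2 (chr12, GC 41.9%) was at 6.16, 11.1 and 14.9 CPM with DMSO and at 8.53, 11.5 and 10.9 CPM with RG7112. The samples overlapped, and the GC-corrected log2 fold change was -0.52 (SE 0.36, adjusted p = 0.345). CDKN1A, the p53-induced inhibitor of cyclin-dependent kinases, had 5.82, 2.35 and 14.0 CPM with DMSO and 9.83, 10.2 and 3.78 CPM with RG7112. Its groups overlapped as well (log2 fold change 0.45, SE 0.68, adjusted p = 0.67), and replicates of a treatment differed several-fold. In A549, for reference, the GC-corrected log2 fold changes were 3.17 for MDM2 and 3.33 for CDKN1A, and the response of MDM2 was lower in H1792 by the test over both lines (log2 difference -3.67, adjusted p = 0.0047). By the same test the log2 difference of CDKN1A was -2.82 and did not pass (adjusted p = 0.0865). Of 28 tested genes of a p53 target list, 6 rose and 3 fell before the correction, against 18.3% and 16.2% of all genes with a GC content. After the correction 2 rose, PPM1D and PLK2, and none fell, against 12.3% and 13% of all genes. PPM1D, a phosphatase that dampens p53 signalling, went from 2.40, 2.35 and 5.52 CPM to 11.6, 16.8 and 12.8 CPM. For PPM1D the mean of A549 replicates 1 and 2 minus replicate 3 was 0.007 with DMSO and 1.72 with RG7112 on the log2 scale. The median log2 fold change of the list went from 0.43 to 0.22.

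Among the genes that mark this response, ENC1, an actin-binding kelch protein, was almost absent with DMSO. It had 1 count in the 3 DMSO libraries together and 996 in the 3 RG7112 libraries, or 0.342, 0 and 0 against 69.8, 75.9 and 71.3 CPM. The ratio of the pooled counts per library size was 869, with an exact 95% interval of 156 to 34365 that covers counting error only. The mean of A549 replicates 1 and 2 exceeded replicate 3 for ENC1 by 2.81 on the log2 scale with DMSO and by 2.67 with RG7112. ITGB1, the beta subunit of many integrins, went from 11.6, 8.12 and 9.34 CPM to 46.5, 48.0 and 55.0 CPM. Its log2 fold change was 2.37 before and 1.84 after the correction (SE 0.17, adjusted p = 0.00353), and the A549 replicates differed by -0.17 and 0.59.

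PTPA, an activator of protein phosphatase 2A, went the other way, from 263, 327 and 373 CPM to 46.3, 54.8 and 48.2 CPM. The log2 fold change was -2.69 before and -2.33 after the correction (SE 0.15, adjusted p = 0.00182), and the mean of A549 replicates 1 and 2 minus replicate 3 was -1.0 in both treatments. HYOU1, an endoplasmic reticulum chaperone, had 126, 138 and 133 CPM with DMSO and 39.8, 31.1 and 32.4 CPM with RG7112. Its log2 fold change went from -1.94 to -1.75 (SE 0.11, adjusted p = 0.00182), its counts are identical to those of another identifier in the table, and its A549 replicate differences were -1.30 and -2.01.

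The named upregulated genes were the 10 with the largest GC-corrected fold change among DEGs before and after the correction that had no overlap between treatments, a mean of at least 20 CPM and more than 3 counts in every sample. They were CPT1A, DLC1, HEG1, DLST, MTSS1L, NDRG1, PSAT1, TAGLN2, SSH1 and FOXK2. CPT1A, which carries fatty acids into mitochondria, had 3.76, 1.92 and 5.52 CPM with DMSO and 57.7, 67.8 and 62.1 CPM with RG7112, a 17.8-fold difference after the correction. DLC1, a GTPase-activating protein, went from 5.48, 0.855 and 3.40 CPM to 41.6, 72.5 and 79.4 CPM. Both were separated in every sample, as the rule required. The correction moved their log2 fold changes little, from 4.14 to 4.16 for CPT1A and from 4.41 to 4.16 for DLC1. DLST, the succinyltransferase of the oxoglutarate dehydrogenase complex, went from 4.79, 7.69 and 5.52 to 44.7, 108 and 80.1 CPM, and PSAT1, an enzyme of serine synthesis, from 9.24, 2.99 and 4.67 to 56.6, 87.3 and 54.8 CPM. SSH1, a phosphatase that activates cofilin, went from 5.48, 5.56 and 5.10 to 20.9, 67.1 and 59.7 CPM. TAGLN2 was the most uneven of the 10, with 22.5, 170.2 and 65.7 CPM in the RG7112 samples against 10.2 to 13.2 CPM with DMSO (adjusted p = 0.0235). Over the 10 genes the corrected log2 fold changes lay between 3.09 for FOXK2 and 4.16, with adjusted p between 0.00323 for NDRG1 and 0.0235. In A549 DMSO, replicates 1 and 2 were higher than replicate 3 for the 9 of these genes tested there, by between 1.17 for HEG1 and 4.33 for SSH1. In A549 RG7112 this held for 6 of the 9, and the differences were -0.17 for DLST, -0.14 for NDRG1 and -2.0 for PSAT1.

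By the same rule the 10 downregulated genes were RNF4, HSPD1, POLE, EZR, SKIV2L, ILF2, LPCAT1, ATP5F1B, RRP12 and MTHFD1. RNF4, a SUMO-targeted ubiquitin ligase, went from 39.7, 119 and 80.3 CPM to 2.84, 3.04 and 1.65 CPM, a 34.5-fold difference after the correction. RNF4 shares exons with FAM193A on the same strand, so reads of the 2 genes may not be separable. HSPD1, the mitochondrial chaperonin, had 102, 340.4 and 212 CPM with DMSO and 17.3, 8.95 and 11.8 CPM with RG7112. POLE, the catalytic subunit of DNA polymerase epsilon, went from 65.7, 85.0 and 79.0 to 8.27, 3.94 and 0.945 CPM, and EZR, which ties the membrane to actin, from 165, 246 and 407 to 38.0, 12.7 and 21.7 CPM. ATP5F1B, the catalytic beta subunit of ATP synthase, went from 357, 483 and 432 to 49.9, 56.4 and 29.5 CPM. No sample of one treatment reached the other in these genes, as the rule required. Their corrected log2 fold changes lay between -5.11 for RNF4 and -3.08 for MTHFD1, with adjusted p between 0.00337 for ATP5F1B and 0.0235 for RRP12. In A549 DMSO all 10 were lower in replicates 1 and 2 than in replicate 3, by between -0.86 for LPCAT1 and -4.80 for HSPD1, and in A549 RG7112 the same held for 9 of them, HSPD1 being 3.54 higher.

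**Figure D4:**
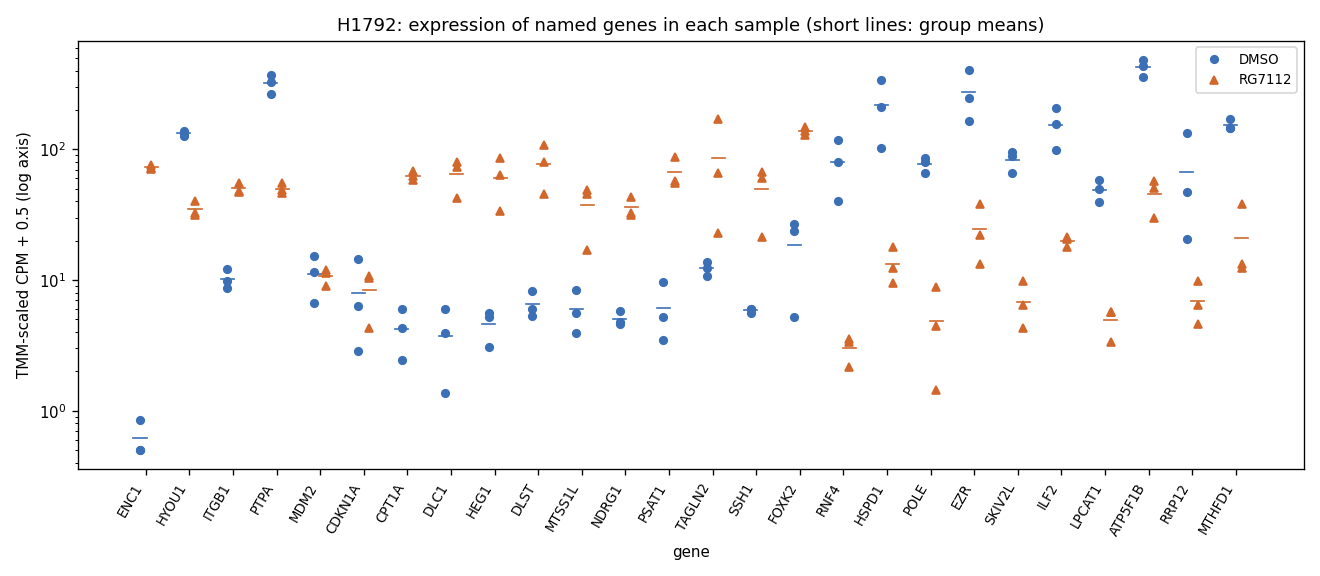
TMM-scaled CPM plus 0.5 on a log axis in each H1792 sample for 26 named genes, DMSO as blue circles and RG7112 as orange triangles, with short lines at the group means. ENC1, ITGB1 and the 10 upregulated genes from CPT1A to FOXK2 have every RG7112 sample above every DMSO sample, PTPA, HYOU1 and the 10 downregulated genes from RNF4 to MTHFD1 have them below, and MDM2 and CDKN1A overlap. The rule that chose the 10 upregulated and the 10 downregulated genes required this separation.

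The genes that lost their call show what the correction removed. SLITRK5, PRKAA1, STXBP5 and LARP4, with 33.8% to 35.8% GC, were the upregulated DEGs whose fold change moved most. PRKAA1, a catalytic subunit of AMP-activated kinase, went from 20.2, 15.4 and 11 CPM to 31.5, 42.1 and 39 CPM without overlap. Its log2 fold change was 1.27 before and 0.56 after the correction (adjusted p = 0.0988). LARP4, an RNA-binding protein of poly(A) tails, kept an adjusted p of 0.0232 with a corrected log2 fold change of 0.95, under the fold threshold. Of the downregulated DEGs, TPRN, ATP5F1D, MCRIP2 and C19orf24, with 69.1% to 70.1% GC, moved most. ATP5F1D, the delta subunit of ATP synthase, had 119.8, 156 and 159 CPM with DMSO and 72.9, 50.8 and 52.4 CPM with RG7112, and its log2 fold change went from -1.31 to -0.64 (adjusted p = 0.015). TPRN, a protein of hair cell stereocilia, went from -1.32 to -0.63 (adjusted p = 0.135). In A549 the GC-corrected replicate differences of these 8 genes stayed between -0.51 and 0.70. The correction had already removed the part of these differences that follows GC content, and the genes lie at the extremes of GC content. Their values therefore cannot show how far the A549 replicates differed in these genes before it.

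Other genes became DEGs with the correction. Among those with the smallest p, AXL, ADCY7 and BICD2 rose and had 53.9% to 54% GC. AXL, a receptor tyrosine kinase, went from 293, 256 and 248 to 468, 518 and 466 CPM. Its log2 fold change moved from 0.87 to 1.02. ADCY7, an adenylate cyclase, and BICD2, a dynein adaptor, reached 1.01 and 1.13. The 4 genes of this kind that fell were MTRNR2L6, ZCRB1, UACA and SNX6, with 35.1% to 41.2% GC. ZCRB1, a component of the minor spliceosome, went from 115, 128 and 96.8 to 61, 59.2 and 69.4 CPM, and its log2 fold change from -0.85 to -1.57 (SE 0.13, adjusted p = 0.00337). SNX6, a retromer-associated sorting nexin, went from 112, 118 and 122.8 to 67.2, 70.3 and 78.4 CPM, and from -0.71 to -1.19. The counts of MTRNR2L6 are identical to those of another identifier, and reads of mitochondrial rRNA could be shared with it.

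Gene lists by function were described by their counts of called members (adjusted p below 0.05) and their medians, beside 12.3% higher and 13% lower over all 9165 genes after the correction. Before the correction the shares over the same genes were 18.3% higher and 16.2% lower, and counts before it are to be read beside these. Of 53 lists, 50 had at least 10 tested members. Their median log2 fold changes ran from -0.57 to 0.68 before and from -0.66 to 0.66 after the correction, while the median of all genes was 0.04 and -0.02, and the sign of the median changed in 8 lists.

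Translation and respiration made up the 4 lowest medians after the correction. Of 82 cytosolic ribosomal protein genes 62 fell and none rose, both before and after, and the median went from -0.57 to -0.66. Summed over these genes, expression was 189277, 200475 and 208741 CPM with DMSO and 147515, 124369 and 122725 CPM with RG7112, without overlap. RPL28, a protein of the large subunit, had 6993, 7095 and 7296 CPM with DMSO and 3970.0, 3504 and 3451 CPM with RG7112 (corrected log2 fold change -0.77, SE 0.06, adjusted p = 0.0032), and RPLP2, a protein of the ribosomal stalk, fell by 0.82. Of 63 mitochondrial ribosomal protein genes 26 fell and 1 rose after the correction (median -0.46), with MRPS11 and MRPL51 as examples at -0.73 and -0.74. Respiratory complex I had 16 of 32 subunits lower and 1 higher (median -0.47), and complexes II to V had 23 of 36 nuclear-encoded subunits lower and none higher (median -0.59). COX7C, a cytochrome c oxidase subunit of 39% GC, went from 193, 178 and 183 to 139, 131 and 132 CPM, and its log2 fold change from -0.46 to -1.03. The complex I subunit called higher was NDUFS6, with 2.05, 0.641 and 0.425 CPM against 17.3, 27.6 and 29 CPM. Of the 13 proteins encoded in mitochondrial DNA, 4 rose and 3 fell before the correction and 5 fell and none rose after it, among them MT-CO2 (corrected log2 fold change -1.06). The proteasome had 14 of 32 subunits lower and none higher after the correction (median -0.39), with PSMB2 at -1.45 and PSMC4, whose counts are identical to those of another identifier, at -0.71.

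These falling lists held short transcripts, with a median length of 1176 nt for cytosolic ribosomal proteins, 1582 nt for mitochondrial ribosomal proteins and 1377 nt for complex I, against 3432 nt over all genes. Their medians in A549 DMSO replicates 1 and 2 against replicate 3 were -0.44, -0.29 and -0.43, where all genes had -0.05. In A549 RG7112 they were -0.21, -0.26 and -0.15, where all genes had -0.02. With a correction for GC content and transcript length together, the medians were -0.41 for cytosolic ribosomal proteins, -0.23 for mitochondrial ribosomal proteins, -0.21 for complex I, -0.38 for complexes II to V and -0.18 for the proteasome, and for the proteins encoded in mitochondrial DNA the sign turned, to 0.14. The part of the A549 pattern in the fall of these lists was not tested.

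The machinery that processes and exports RNA divided. Among 29 SR proteins and hnRNPs, the splicing factors that bind exons and nascent RNA, 7 rose and 5 fell before the correction, while 1 rose and 15 fell after it, and the median went from 0.09 to -0.38. This list had a median GC content of 42.3%. HNRNPUL1 was the member that rose, from 543, 521 and 482 to 675, 755 and 781 CPM. SRSF9 had the lowest value, with 48.3, 40.0 and 38.7 CPM against 17.6, 5.91 and 4.72 CPM (corrected log2 fold change -2.11, adjusted p = 0.0213). The 19 nucleoporins, the subunits of the nuclear pore, had 10 higher and 2 lower before and 8 higher and 3 lower after the correction, and the median went from 0.68 to 0.36. NUP58 went from 3.42, 1.92 and 2.12 to 17.3, 27.4 and 32.1 CPM, and NUP155 from 1.37, 0.214 and 0.425 to 16.3, 28.3 and 33.3 CPM. Translation initiation factors had 4 of 45 higher and 16 lower after the correction (median -0.34), against 8 and 14 before, with EIF5B at -1.12. Before the correction the median of this list was -0.14, and with library size in place of TMM scaling it was positive.

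Fewer mitotic genes were called higher after the correction. Of 40 mitotic genes 14 rose and 6 fell before the correction, and 3 rose and 7 fell after it, with a median of 0.19 and then -0.07, or 0.03 when transcript length was corrected for as well. BUB1, a spindle checkpoint kinase, had 80.4, 63.7 and 73.1 CPM with DMSO and 130.1, 169 and 171 CPM with RG7112, and its log2 fold change went from 1.12 to 0.69 (SE 0.11, adjusted p = 0.00845). SPC24, a kinetochore protein, fell by 0.73. Of 39 replication genes 4 rose and 8 fell before the correction, and 3 rose and 7 fell after it (median 0.00), among them RRM2, the small subunit of ribonucleotide reductase, which rose by 0.88.

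Adhesion, matrix and cytoskeletal genes moved in both directions. Of 51 EMT and mesenchymal genes 16 rose and 13 fell before the correction and 11 rose and 7 fell after it (median 0.13 and then 0.20). The study took this theme from the genes that fell in these samples, so the list is no independent evidence of a direction. The study also reported lower Vimentin, N-Cadherin and Snail protein in treated H1792 by Western blot, and the counts here do not measure protein. PLOD3, a collagen lysyl hydroxylase of 61.7% GC, went from 163, 198 and 186 to 63.1, 56.7 and 56.2 CPM (corrected log2 fold change -1.22, SE 0.09, adjusted p = 0.0032). Collagens and laminins, with a median GC content of 59.0%, had 2 of 23 higher and 8 lower before and 3 higher and 2 lower after the correction, and their median went from -0.32 to 0.03, or to -0.15 when transcript length was corrected for as well. LAMA4 and COL27A1 were among those that rose, by 0.89 and 1.69. Of 13 integrins 4 rose and 2 fell, with ITGB1 and its partner ITGA4 (9.92, 12.6 and 15.3 against 42.7, 62.1 and 59.3 CPM) among the risers. Actin-binding genes had 8 of 37 higher and 10 lower, and CORO1C, a coronin, went from 4.79, 1.92 and 0 to 82.0, 116 and 119 CPM. The A549 replicate differences of CORO1C were 1.39 with DMSO and 1.02 with RG7112. KRT18 and KRT8, the paired keratins of simple epithelia, fell by 0.79 and 0.42 after the correction.

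Signalling genes held the highest medians after the correction. MAPK feedback genes, which ERK activity is known to induce, had 9 of 16 higher and none lower, against 10 and 1 before, and their median went from 0.57 to 0.66. In A549 replicates 1 and 2 against replicate 3 the list had medians of 0.27 with DMSO and 0.12 with RG7112. Summed expression of the 16 was 1717, 1527 and 1575 CPM with DMSO and 2000.2, 2306 and 2245 CPM with RG7112, without overlap. DUSP6, the ERK phosphatase, went from 46.2, 43.6 and 40.4 to 96.4, 101 and 94.5 CPM (corrected log2 fold change 0.96, SE 0.10, adjusted p = 0.00366). CCND1, the G1 cyclin, went from 1.37, 2.35 and 0.849 to 54.3, 116 and 101 CPM, and its A549 replicate differences were 4.11 and 3.73, where DUSP6 differed by 0.31 and 0.23. YAP and TEAD targets had 5 of 17 higher and 1 lower (median 0.42). Genes of the unfolded protein response had 5 of 15 higher and 4 lower (median 0.37), with CANX, the lectin chaperone calnexin, at 0.72 beside HYOU1 at -1.75. Of 28 vesicle coat and translocon genes, the median went from 0.28 to -0.03, and SEC23A, a COPII coat protein of 37.3% GC, still rose, from 55.1, 57.3 and 44.6 to 153, 169 and 186 CPM, as did COPA (0.61).

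**Figure D5:**
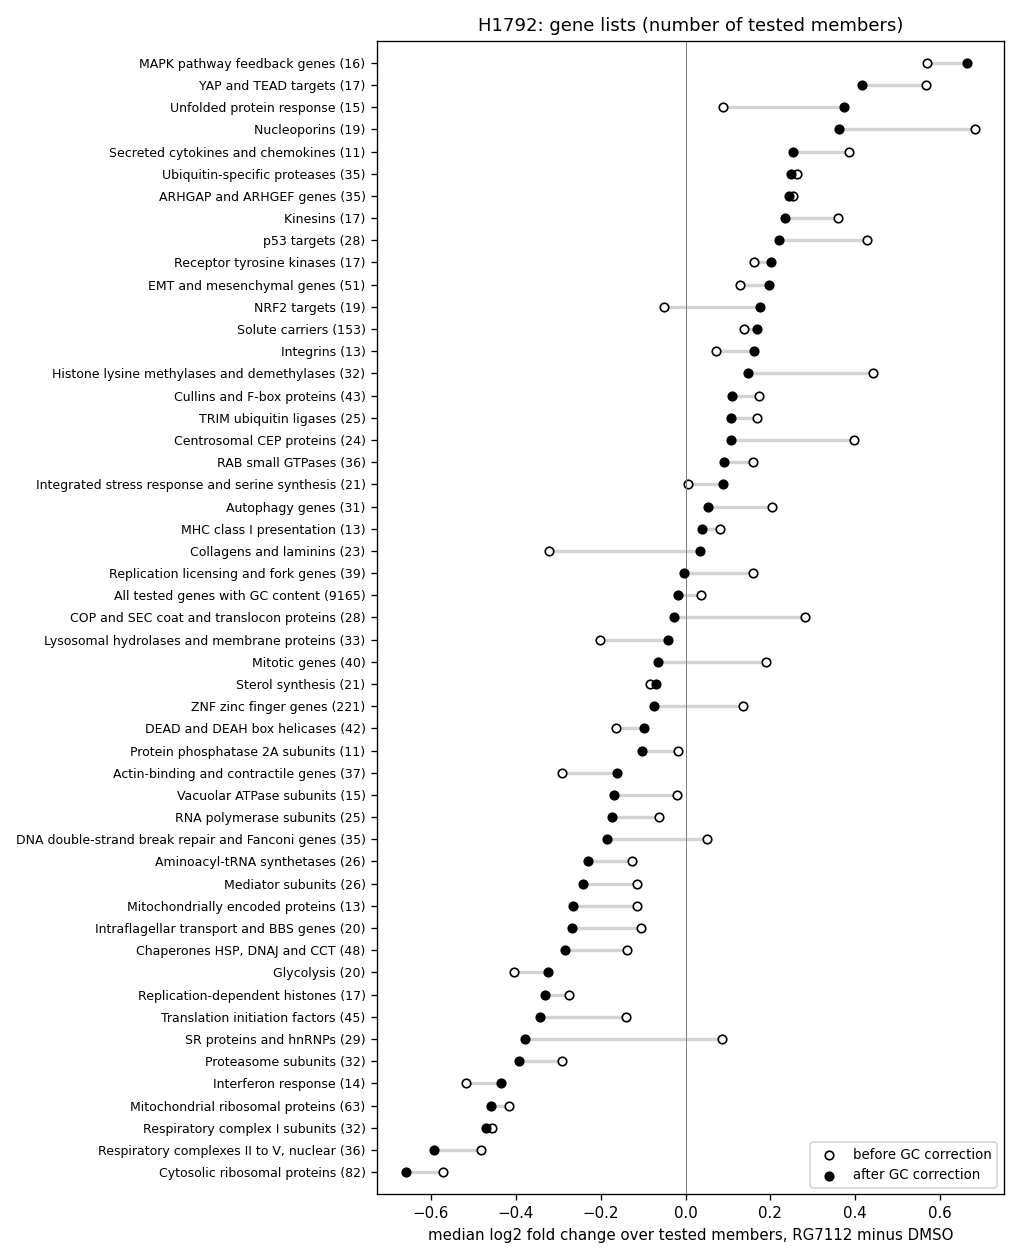
Median log2 fold change, RG7112 minus DMSO, over the tested members of each of 50 gene lists and over all 9165 genes in H1792, before (open circles) and after (filled circles) the GC correction, with the number of tested members in brackets. Cytosolic ribosomal proteins and respiratory complexes stay lowest and MAPK feedback genes highest after the correction, SR proteins and hnRNPs drop from 0.09 to -0.38, and collagens and laminins move from -0.32 to 0.03.

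The 221 tested ZNF zinc finger genes had 26 higher and 10 lower before and 15 higher and 11 lower after the correction, and their median went from 0.13 to -0.07. Solute carriers had 23 of 153 higher and 9 lower after the correction (median 0.17), with SLC39A14, a zinc and iron transporter, at 1.03, 0.214 and 0 CPM with DMSO and 20.4, 50.5 and 42.3 CPM with RG7112. For SLC39A14 the mean of A549 replicates 1 and 2 exceeded replicate 3 by 2.19 with DMSO and by 3.15 with RG7112 on the log2 scale. KIF13B, a kinesin, had no count with DMSO and 55 counts with RG7112, which is at least 16-fold higher against a floor of 3 counts over the DMSO group. DHX29, a helicase of translation initiation, was one of the 9 downregulated DEGs with at most 3 counts in every RG7112 sample, with 164 counts against 2 (ratio 94.0, exact 95% interval 25.6 to 782). In the other direction, 52 upregulated DEGs had at most 3 counts in every DMSO sample.

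The correction left correlations with other features of the transcripts. Spearman's correlation of the log2 fold change with transcript length was 0.34 before and 0.21 after the correction, and with mean CPM -0.23 and -0.14. The upregulated DEGs kept a median length of 4779.5 nt, and the downregulated DEGs had 3254 nt, against 3432 nt over all genes. In the shortest decile of transcripts (207 to 1469 nt) 1.31% of the genes were upregulated DEGs after the correction and the median log2 fold change was -0.33, while in the longest decile 11.9% were upregulated and the median was 0.14. Downregulated DEGs made up 4.59% and 3.38% of these deciles. The median coding length was 1806 nt for upregulated and 1570.5 nt for downregulated DEGs, against 1371 nt over all genes. Coding length and 3′ UTR length had correlations of 0.19 and 0.20 with the corrected fold change. The median length of the 3′ UTR was 2339 nt and 871 nt, against 1308 nt. The number of annotated transcripts per gene had a correlation of -0.01 with the corrected fold change.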

How the data were processed

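Counts came from 1 table of 12 samples and 20595 genes, of which the 6 H1792 samples were tested. Per the labels, directional libraries of poly-adenylated RNA were read as paired ends on a NextSeq500. The authors obtained estimated counts with kallisto 0.45.0 against GRCh38 (Ensembl), summed per gene and deposited as whole numbers, so they were used without rounding. Whether kallisto used strand is not given in the sources used here.

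Genes were filtered by filterByExpr (minimum count 10, minimum total 15), scaled by TMM and tested with edgeR 4.0.16 (quasi-likelihood, robust) in R 4.3.3, with Benjamini-Hochberg adjusted p. For the correction, a loess curve (span 0.5) of each sample's log2 CPM deviation on the GC content of the longest transcript in GENCODE v29 entered as an offset, and 749 genes without GC content were left out. DESeq2 1.42.0 and limma 3.58.1 were alternatives. The scripts were tested on simulated data. The difference from A549 was an interaction over 12 samples with the same offset. Fold changes are log2, and SE is that of the fit. Intervals and the floor of 3 counts (0.579 to 1.15 CPM per library) cover counting error only.

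Members and lists were chosen with earlier results of these data known. Named genes were the markers of the comparison with MDM2 and CDKN1A, the 10 leading genes per direction, the 2 called members of smallest p per list, and 4 genes per direction that lost or gained their call, and only some of them are given. A few items are not reported here. The label for the RG7112 samples and the column names disagree on the dose (1 and 0.1 µM). Overlapping genes without strand cannot be told apart, which among the genes named concerns ENC1, PTPA, MDM2, FOXK2, HSPD1, MTHFD1, KRT8, KRT18 and others.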

Additional observations from a re-analysis of the deposited data

Results flagged for a closer look

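The response to RG7112 was compared between H1792 and A549 by the interaction term of edgeR's quasi-likelihood test over 12 samples, with 3 samples per group and the GC correction. Of 10745 genes tested, 1699 passed an adjusted p of 0.05, 999 higher and 700 lower in H1792, and so did 443 of the 946 DEGs. Of the 76 genes examined one by one, 42 passed, and their values below are the log2 response in H1792 minus that in A549. The adjusted p lay between 2.71e-07 for RRM2 and 0.0472 for ZCRB1.

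MDM2 had a difference of -3.67, with a log2 response of 3.17 in A549. The cell cycle genes differed by 6.42 for RRM2, 5.05 for BUB1 and 3.57 for SPC24, with log2 fold changes in A549 of -5.54, -4.36 and -4.32. Among the other genes with a higher response in H1792, the differences were 9.10 for ENC1, 7.90 for SLC39A14, 6.53 for KIF13B, 6.16 for CCND1, 5.56 for CORO1C, 5.12 for PSAT1, 4.6 for NDUFS6, 4.46 for CPT1A, 4.41 for MTSS1L, 4.22 for DLST and 4.11 for TAGLN2. They were 3.92 for HEG1, 3.48 for NUP58, 3.43 for NDRG1, 1.62 for ITGB1, 1.38 for HNRNPUL1, 1.32 for BICD2, 1.22 for ADCY7, 1.17 for AXL, 1.08 for SEC23A, 0.89 for LARP4 and 0.73 for CANX. The fit also gave 8.22 for NUP155, 5.36 for DLC1 and 1.89 for ITGA4, but these genes did not pass the expression filter in A549 by itself, so the values rest on H1792 and are not measured differences from A549. ENC1, SLC39A14 and KIF13B had at most 3 counts in every H1792 DMSO library, and DHX29 in every RG7112 library, so their fitted values depend on the prior count and are no bounds. Among the genes with a lower response in H1792 they were -10.34 for DHX29, -5.69 for RNF4, -4.28 for EZR, -3.99 for SKIV2L, -3.97 for ATP5F1B, -3.74 for SRSF9, -2.95 for MTRNR2L6, -2.74 for PTPA, -2.45 for MT-CO2, -1.59 for ZCRB1, -1.04 for COX7C, -1.0 for EIF5B and -0.93 for RPL28. For several of these genes A549 samples of one treatment lay more than 2-fold apart, as given in the report. Without replicate 3 of both A549 treatments, an alternative chosen after seeing the data, 89 of the genes that the rule selects passed, against 75 with all samples.

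The slope of expression on GC content went down with RG7112 in H1792, with a difference of -0.47 on the log2 scale per 10 percentage points, and up in A549, with a difference of 0.21, or 0.08 without A549 RG7112 replicate 3. The difference between the lines in this slope was not tested. In this design differences between libraries and between cells cannot be told apart.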

How the results depend on the processing

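Leaving out 1 sample at a time gave 920 to 1642 DEGs before the GC correction (1450 with all samples) and 511 to 1095 after it (946). Without the fold threshold there were 3384 and 2320 genes, and at an adjusted p of 0.01 there were 722 and 395. Removing the GC trend among replicates of one treatment only, and so leaving in the trend between treatments, gave 1424. Without the 1851 genes more than 2-fold apart between A549 replicates, an alternative chosen after seeing the data, 488 of 7314 genes were DEGs, 313 upregulated and 175 downregulated. These 7314 include 623 genes that were not tested in A549 and so could not be screened, 78 of them DEGs. Of the 6691 genes that were screened and kept, 410 were DEGs. Apart from the replicate block, the other alternatives stayed within 1.5 times of either count (668 to 1076 after the correction).

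The replicate numbers did not pair the samples, since deviations of same-numbered samples had correlations of -0.04, -0.02 and -0.0002. Blocking on it, the counts were 995 before and 507 after the correction. The block gave 79 named genes that differed from A549, against 75 without it, and leaving out replicate 3 of both A549 treatments gave 89.

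The log2 fold change of MDM2 before the correction (-0.05) changed sign with library size only (0.22), with at least 10 counts in every sample (0.028), with limma (0.015), with the replicate block (0.0086), without DMSO replicate 3 (0.23) and without RG7112 replicate 1 (0.06), and leaving out 1 sample at a time gave -0.33 to 0.23. That of CDKN1A before the correction (0.15) changed sign without DMSO replicate 2 (-0.31), RG7112 replicate 1 (-0.024) and RG7112 replicate 2 (-0.09), with a range of -0.31 to 0.99, and after it (0.45) without DMSO replicate 2 (-0.020), with a range of -0.020 to 1.27. None of these passed the test. The difference from A549 of CCT4 turned to 1.18 without the A549 replicates 3, an alternative chosen after seeing the data. The causes were not tested. Of 2707 values of named genes after the correction, over all alternatives, 2542 kept their direction and call and 146 lost the call. Of 1749 list medians 431 moved by more than the spread between replicates. With the correction for GC content and transcript length together 37 of 53 moved. With the GC trend removed among replicates of one treatment only, 34 of 53 moved. With library size in place of TMM scaling 53 moved and 53 did not, counted before and after the correction together. Depth limits genes near the floor of 3 counts.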
